A study of Mus musculus with 14 samples.

Results

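H3K27me3, trimethylation of lysine 27 on histone H3, was described across the genome of mouse Group 3 medulloblastoma tumour cells with and without Ezh2. The description covers every island of both deposited tumour H3K27me3 lists, an island being a run of enriched 200 bp windows joined across gaps. The lists held 14107 islands from cells labelled Cas9 and 5312 from cells labelled Ezh2 knockout, 19419 of the 201448 regions in the 11 lists of the series. The islands were chosen by their list alone, and none was left out.

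The control cells were p53-/-;p18-/- tumour cells labelled Cas9, and the other cells were p53-/-;p18-/- ;Ezh2-/- tumour cells. Both kinds came from tumorspheres, floating cultures of tumour cells that overexpressed Myc. Per the labels they had been infected with retroviral vectors and sorted for red and green fluorescence before expansion. The labels name transplantation into the brains of CD-1 nu/nu mice, and do not say whether chromatin was taken from culture or from the grafts, nor whether the knockout line was 1 clone. Both H3K27me3 libraries carry the same antibody label. Each group held 1 library, which leaves every value without a replicate error and allows no test across samples. Read depth is unknown, and region lists do not show whether the Ezh2 gene was lost. All positions are in build mm9.

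Ezh2 is the main catalytic subunit of Polycomb repressive complex 2, which places H3K27me3, and Ezh1 is the related subunit that can take its place. The mark forms long domains over silenced developmental genes such as the Hox clusters, and broader, weaker blankets between genes. H3K4me3, a mark of gene starts, and H3K27ac, a mark of active promoters and enhancers, were called in the same cells and serve here as landmarks. In these cells the islands of the knockout were fewer and shorter, and mostly lay at other bases than those of Cas9 cells. Their median distance from H3K4me3 was larger.

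The summed length of the islands was 71.4 Mb for Cas9 cells against 18.6 Mb for the knockout, a ratio of 0.261. These were 2.77% and 0.723% of the 2574 Mb between the first and last region seen on each chromosome. Only 5.06 Mb were covered in both lists, while 66.3 Mb belonged to the Cas9 list alone and 13.5 Mb to the knockout list alone. Of the bases covered in Cas9 cells, 7.09% were thus covered again, and of the bases covered in the knockout 27.2% had been covered in Cas9 cells. Most bases that carried an island in the knockout therefore had none in Cas9 cells. Trimming the Cas9 list by score to 5312 islands, with the knockout list unchanged, gave a covered length ratio of 0.414. This left out 62.3% of Cas9 islands and could only raise the ratio.

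Counted as islands that shared at least 1 bp, 1680 Cas9 islands, or 11.9% (11.4 to 12.5), met a knockout island. Of the knockout islands 1815, or 34.2% (32.9 to 35.5), met a Cas9 island. The brackets are Wilson 95% intervals, which cover counting error only. Where islands met, they seldom matched. Knockout islands covered 39.9% of the length of the Cas9 islands they met, and 244 of the 1680 were covered whole. In the other direction Cas9 islands covered 71.4% of the length of the knockout islands they met, and 811 of the 1815 were covered whole. Of the 1680 Cas9 islands, 1470 met exactly 1 knockout island. Another 173 met 2, 37 met 3 or more, and the most was 5. Conversely 119 knockout islands met 2 or more Cas9 islands. Exact agreement of both ends occurred in 7 pairs. Demanding that 50% of an island be covered left 6.40% of Cas9 islands, and lists of equal number gave 20.5% for knockout islands.

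Knockout islands were short, and few of them reached the length of the long domains of Cas9 cells. The median length was 3800 bp in Cas9 cells against 3000 bp for the knockout. The upper tail differed more, with 95th percentiles of 12600 and 6800 bp and longest islands of 141 and 29.4 kb. Islands of 20 kb or more numbered 231 in Cas9 cells against 2 for the knockout, and those of 10 kb or more numbered 1220 and 60. Islands of 10 kb or more carried 27.6% of the covered length in Cas9 cells against 4.25% for the knockout. The ratio of covered length, knockout over Cas9, fell with each length class: 0.568 for islands under 2 kb, 0.535 from 2 to 3 kb, 0.404 from 3 to 5 kb, 0.215 from 5 to 10 kb, 0.0571 from 10 to 20 kb and 0.00734 at 20 kb or more. Each class counts the islands that have that length in their own list.

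Per base, however, long Cas9 islands were not covered less in the knockout than short ones. Of the bases in Cas9 islands under 2 kb, 6.87% were covered in the knockout, and the share was 5.98% from 2 to 3 kb, 6.53% from 3 to 5 kb and 6.34% from 5 to 10 kb. It was 8.22% from 10 to 20 kb and 10.4% at 20 kb or more. The low share of bases covered again was thus found in all 6 length classes, from 5.98% to 10.4%. Leaving out islands under 2 kb gave 6.70% over all Cas9 bases.

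**Figure D1:**
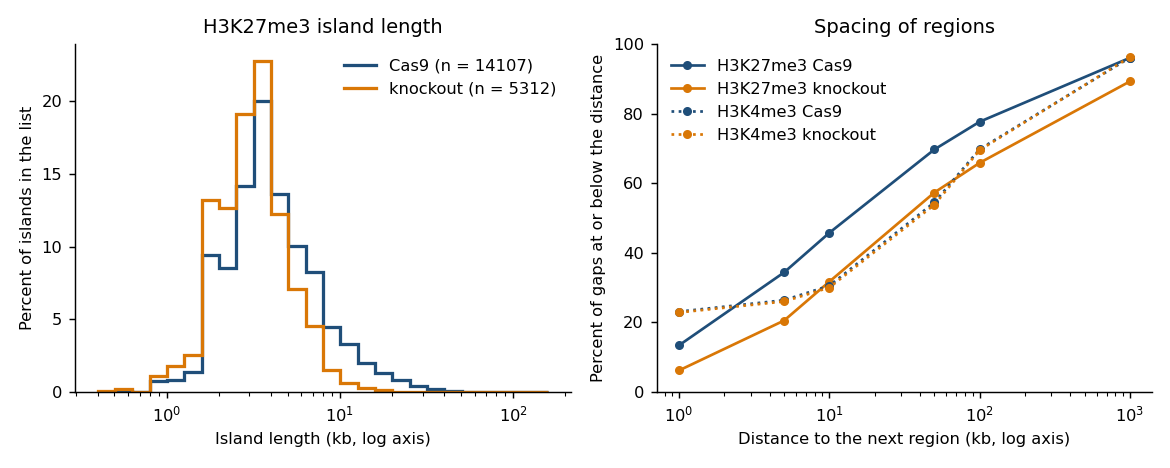
Left, the share of islands in each list by island length on a log axis, for 14107 Cas9 and 5312 knockout islands. Right, the share of gaps to the next region at or below 1, 5, 10, 50, 100 and 1000 kb, for H3K27me3 islands (solid) and H3K4me3 peaks (dotted). Islands of 10 kb or more number 1220 in Cas9 cells against 60 in the knockout, and knockout islands have a neighbour within 10 kb in 31.7% of gaps against 45.8% in Cas9 cells.

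The 5 longest islands of Cas9 cells included all 4 Hox clusters, the arrays of homeobox genes that set position along the body axis. These names come from general knowledge of the mouse map, since no annotation of the lists' build was used here. The longest, 141 kb at chr15:102736601-102877600, lies at the HoxC cluster, and 137.8 kb at chr6:52099401-52237200 at the HoxA cluster. The third, 95.4 kb at chr2:74516201-74611600, lies at the HoxD cluster, and the fifth, 74.4 kb at chr11:96108401-96182800, at the HoxB cluster. Knockout islands covered 10.0 kb of the HoxC island, 10.4 kb of the HoxA island, 9.20 kb of the HoxD island and 5.00 kb of the HoxB island. The fourth, 78.0 kb at chr5:33816001-33894000, had 3.8 kb covered. It differed from the Hox islands in its marks: it held 0 H3K4me3 peaks in either kind of cell, while the HoxC, HoxA, HoxD and HoxB islands held 10, 15, 7 and 13 in the knockout. In Cas9 cells the same Hox islands held 0, 0, 1 and 0.

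The longest islands of the knockout lay elsewhere. The first measured 29.4 kb at chr17:13402001-13431400, of which Cas9 islands covered 23.0 kb. The next were 20 kb at chr15:78507601-78527600, 19.6 kb at chr5:144004801-144024400 and 17.4 kb at chr1:134653401-134670800, with 3.40, 5.60 and 16.2 kb covered in Cas9 cells. The fifth place was tied at 16.8 kb, and the first of the tied islands by position lay at chr1:134786001-134802800. All 5 held 0 H3K4me3 and 0 H3K27ac peaks in both kinds of cell, and each met at least 1 Cas9 island.

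Islands lay close together in both lists, with wide empty stretches between groups of them. The smallest gap was 800 bp, the next grid step above the 600 bp that the caller joins. The median gap was 13 kb in Cas9 cells against 30 kb for the knockout, with means of 175 and 462 kb. The next island lay within 10 kb in 45.8% of gaps in Cas9 cells against 31.7% for the knockout, and within 100 kb in 77.7% and 65.9%. It lay within 1 Mb in 96.0% and 89.2%. Trimmed by score to the size of the knockout list, the Cas9 list had a neighbour within 10 kb in 33.9% of gaps, near the 31.7% of the knockout. H3K4me3 peaks, with gaps of 40.9 kb at the median in Cas9 cells, had a next peak within 10 kb in 30.5% of gaps.

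Joining islands across gaps of up to 10 kb made 7661 runs in Cas9 cells against 3633 for the knockout. Of all islands, 36.8% stood alone in Cas9 cells against 54.7% for the knockout, and runs of 10 or more islands held 10.6% and 7.02%. The longest Cas9 run at this distance measured 555 kb on chromosome 11 from 95953401 to 96508400 and spans the HoxB cluster. It held 50 islands over 456.8 kb, and in the same interval the knockout had 2 islands over 5.00 kb. The third, 419.8 kb at chr15:102560001-102979800 around the HoxC cluster, held 371 kb in Cas9 cells against 13.0 kb for the knockout. The fourth, 295.2 kb at chr11:84327801-84623000, held 230.6 and 13.0 kb. In these 3 runs almost all of the covered length was absent from the knockout list.

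The second and the fifth run went another way. The second, 454.6 kb at chr1:134407401-134862000, held 33 islands over 381.6 kb in Cas9 cells and 41 islands over 234.2 kb in the knockout. The fifth, 281.6 kb at chr5:35605801-35887400, held 242.4 kb in Cas9 cells against 105.4 kb for the knockout. Both had 0 H3K4me3 peaks in Cas9 cells and at most 1 in the knockout. The chromosome 1 interval also held the longest run of the knockout list, 256.2 kb at chr1:134454001-134710200, with 29 knockout islands over 162.4 kb and 19 Cas9 islands over 202.4 kb. The other 4 of the 5 longest knockout runs at this distance measured 153.6 to 176.6 kb. They lay at chr2:179136801-179313400, chr15:73803601-73962200, chr11:118482001-118636000 and chr15:78415001-78568600. Each of these 4 was covered over more bases in the knockout than in Cas9 cells. The values were 80.4 against 19.6 kb, 85.0 against 10.4 kb, 104.4 against 75.6 kb and 109.4 against 67.6 kb. Runs chosen as the longest of 1 list favour that list in such a comparison, so these values describe them and test nothing.

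Joined across gaps of up to 50 kb, the widest neighbourhood of the series' H3K27me3 lists belonged to the knockout. This knockout run measured 1596 kb at chr4:151728201-153324200 and held 159 islands over 694 kb. In the same interval Cas9 cells had 59 islands over 247.2 kb. The widest Cas9 run at this distance measured 831.8 kb, also on chromosome 4, from 137818001 to 138649800. Knockout islands covered 43.5% of the 1596 kb run, which spanned nearly the whole distance between neighbouring H3K4me3 peaks. The nearest peak of Cas9 cells lay 14.8 kb below it and 7.15 kb above it, so that the run took up 98.6% of a peak-free interval of 1.62 Mb. The H3K4me3 list of the knockout gave 98.7% of the same 1.62 Mb.

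**Figure D2:**
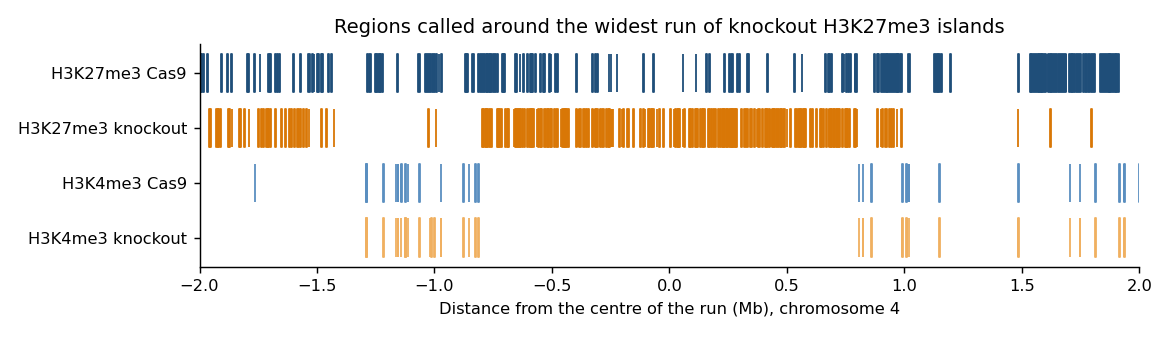
Regions called within 2 Mb on either side of the centre of the widest knockout run, on chromosome 4, with distance from the centre in Mb on the x axis and one row per list. The knockout run spans 98.6% of the 1.62 Mb between H3K4me3 peaks, and within the run the knockout has 159 islands and Cas9 cells have 59.

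The next 4 widest knockout runs joined at 50 kb also lay between H3K4me3 peaks, without filling the interval. They lay at chr5:128667401-129458600, chr11:113729201-114512600, chr6:113699601-114404200 and chr4:130524401-131220200, and measured 791.2, 783.4, 704.6 and 695.8 kb. The knockout covered 220.8, 251.4, 274.6 and 223.6 kb in them, and Cas9 cells covered 48.2, 175.2, 100.0 and 173.8 kb. These runs were chosen as the widest of the knockout list, which favours the knockout in this comparison. They took up 56.5%, 85.5%, 62.1% and 66.7% of the intervals between the flanking H3K4me3 peaks of Cas9 cells. None of these 4, nor the first, held an H3K4me3 or H3K27ac peak of either kind of cell. Of the 5 widest Cas9 runs, 3 held H3K4me3 peaks of Cas9 cells, with 8, 5 and 4. The HoxB run held 0 in Cas9 cells against 20 for the knockout, and the last of the 5, at chr5:112073001-112668200, held 0 in both. In that run the knockout covered 144.6 kb where Cas9 cells covered 257.8 kb.

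Counted in windows of 1 Mb, the islands were gathered into a small part of the genome, and more so in the knockout. Of 2587 windows, 36.2% held no island in Cas9 cells and 55.4% held none in the knockout, where islands were assigned by their midpoint. The fullest 10% of windows, 259 in each list, held 54.3% of the Cas9 islands and 70.5% of the knockout islands. For H3K4me3 peaks the same share was 40.4% in Cas9 cells against 39.6% for the knockout. With the Cas9 list trimmed to 5312 islands its share was 64.2%, still below that of the knockout. The fullest window held 69 islands in Cas9 cells against 98 for the knockout. Over the 2587 windows the island numbers of the lists had a Pearson r of 0.49 and a Spearman rho of 0.51, and windows of 1 chromosome share their libraries and neighbours.

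The fullest windows were partly different ones. Of the 259 fullest in each list, 102 were the same, or 39.4% of each set. In these 102 windows Cas9 islands covered 18.4 Mb and knockout islands 7.70 Mb, a ratio of 0.418, and 38.2% of the knockout bases were shared. In the 157 windows fullest in Cas9 cells alone, the covered length was 24.8 Mb and 0.878 Mb, a ratio of 0.0354. In the 157 fullest in the knockout alone it was 5.02 and 6.24 Mb, a ratio of 1.24, with 12.6% of the knockout bases shared. These sets were chosen by the island numbers themselves, so the ratios describe them and test nothing. The median number of H3K4me3 peaks per window in Cas9 cells was 10.5, 14 and 3 in these 3 sets and 3 in the remaining 2171 windows. Over all windows that number had a Pearson r of 0.53 with Cas9 island numbers and 0.11 with those of the knockout. The Spearman rho values were 0.66 and 0.28. The choice by island number thus partly sets these medians.

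Of the 1849 windows with an island in either list, 1298, or 70.2%, were covered at least 2-fold less in the knockout. Another 293 windows, or 15.8%, were covered at least 2-fold more. These shares stand against a ratio of 0.261 for the whole lists. The 293 higher windows held 334 islands in Cas9 cells against 1447 in the knockout. They carried 26.8% of the covered bases of the knockout and 1.63% of those of Cas9 cells. Their median number of H3K4me3 peaks in Cas9 cells was 0, against 6 in the lower windows. The classes depend on Cas9 coverage, and Cas9 island numbers followed H3K4me3 over windows, so these medians are partly set by the classes. Windows with islands in the knockout alone numbered 198, and none of them held more than 12. Of the 483 windows with 10 or more Cas9 islands, 80 had none in the knockout.

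The 1 Mb windows with the most covered bases in Cas9 cells began with 96 to 97 Mb of chromosome 11, which holds the HoxB cluster. It had 569 kb in Cas9 cells against 6.40 kb for the knockout. The next, chr1:134000001-135000000, had 479.4 and 242.6 kb, and was also the second window of the knockout. At chr4:154000001-155000000 the values were 406.8 and 12.0 kb, at chr11:118000001-119000000 they were 404 and 207.8 kb, and at chr2:180000001-181000000 they were 401.4 and 61.0 kb. Among these 5 windows, what the knockout covered thus ranged from 6.40 to 242.6 kb, against 401.4 to 569 kb in Cas9 cells.

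In the knockout the window chr4:152000001-153000000, inside the widest run, stood first with 421.8 kb, where Cas9 cells had 92.6 kb. It held 0 peaks of H3K4me3 and of H3K27ac in both kinds of cell. The others among the first 5 of the knockout were the windows of chromosomes 1 and 11 just named, chr2:179000001-180000000 with 220.8 kb and chr4:138000001-139000000 with 206.2 kb. After the chromosome 4 window, the largest excess of the knockout over Cas9 cells was 145.2 kb at chr15:87000001-88000000. It was followed by 127.4 kb at chr8:121000001-122000000, 114.6 kb at chr11:82000001-83000000 and 107.6 kb at chr5:142000001-143000000. These 4 windows held 1, 4, 7 and 3 H3K4me3 peaks in Cas9 cells.

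The longest stretches without any island in Cas9 cells were 17.7 Mb at chr16:60606201-78301200, 13.7 Mb at chrX:70749401-84483200 and 13.3 Mb at chr1:140746401-154052800. They were followed by 12.8 Mb at chrX:117406801-130220600 and 12.7 Mb at chr15:13104801-25770600. The knockout had no island in 3 of these 5 either, 10 islands over 28.0 kb in the chromosome 1 stretch and 2 over 4.80 kb in the chromosome 15 stretch. In these 5 stretches, without a called island in Cas9 cells, the knockout thus had few islands or none.

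The ratio of covered length differed between chromosomes. In Cas9 cells the covered length per Mb of span ran from 8.36 kb on chromosome 3 to 59.2 kb on chromosome 11 among the 19 autosomes, with a median of 33.0 kb. In the knockout it ran from 0.996 to 17.5 kb on the same chromosomes, with a median of 6.06 kb. The order of the chromosomes was broadly kept, with a Pearson r of 0.82 and a Spearman rho of 0.81 between island numbers per Mb over the 19 autosomes. The knockout covered less on each of the 20 chromosomes, and the ratio lay below 1 throughout and ran from 0.0844 to 0.364 among autosomes. It was highest on chromosomes 4 (0.364), 12 (0.361), 7 (0.345), 5 (0.343) and 15 (0.321). It was lowest on chromosomes 19 (0.0844), 3 (0.119), 10 (0.143), 14 (0.148) and 2 (0.159).

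Chromosomes 4 and 19 stood at the ends of this range. They had almost the same covered length per Mb in Cas9 cells, 43.3 and 43.5 kb, and 15.8 and 3.67 kb in the knockout. On chromosome 19 the knockout islands mostly lay where Cas9 islands had been, with 63.9% of the 61 islands meeting one and 56.1% of the bases shared. On chromosome 4 the shares were 45.1% of 605 islands and 29.9% of the bases. Across autosomes the shared part of the knockout bases ran from 17.2% on chromosome 13 to 56.1% on chromosome 19. Against the density of H3K4me3 peaks of Cas9 cells, the ratio had a Pearson r of 0.03 and a Spearman rho of 0.10 over the 19 autosomes, which share their libraries.

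**Figure D3:**
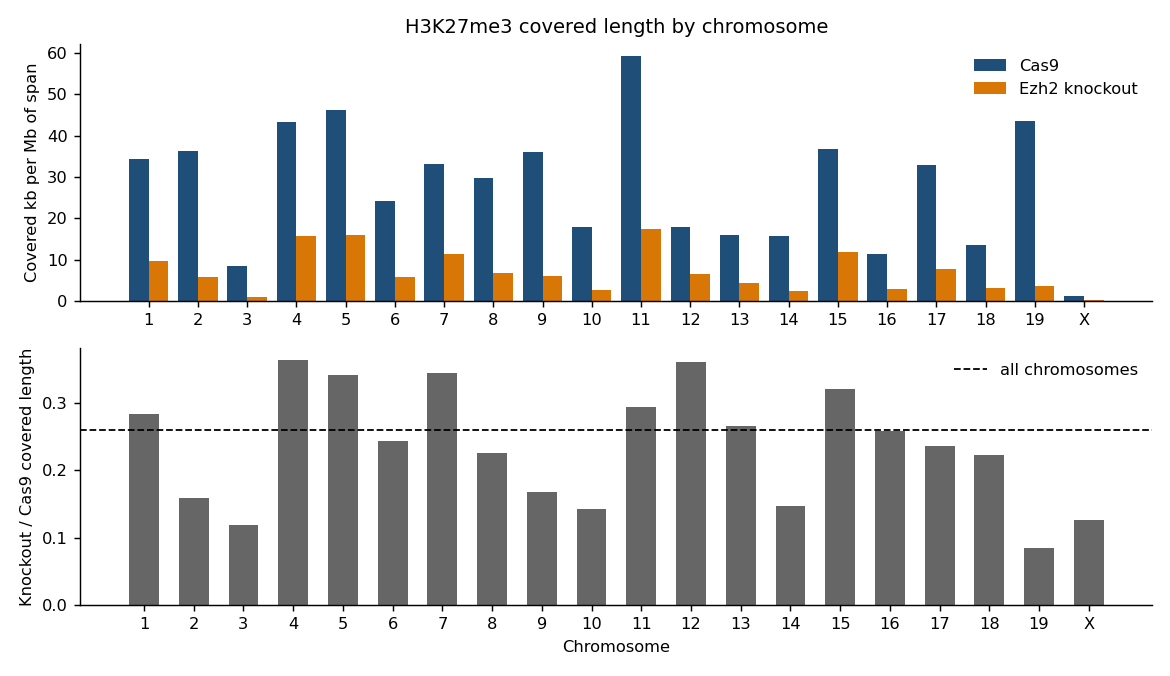
Top, kb covered by H3K27me3 islands per Mb of chromosome span in Cas9 (blue) and Ezh2 knockout (orange) cells. Bottom, the knockout over Cas9 ratio of covered length, with the value for all chromosomes, 0.261, as a dashed line. Chromosomes 4 and 19 have like values in Cas9 cells (43.3 and 43.5 kb per Mb) and ratios of 0.364 and 0.0844.

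Chromosome X was nearly bare in both lists. It held 59 islands in Cas9 cells, 0.418% (0.324 to 0.539) of the list, and 7 in the knockout, 0.132% (0.0638 to 0.272). Per Mb of span this was 0.0627 and 0.0197 of the autosomal density. The share of Cas9 cells came to 0.031 of the autosomal density with lists of equal number and to 0.0387 by covered bases. The 7 knockout islands covered 23.4 kb, of which 0.40 kb had been covered in Cas9 cells. Peaks of H3K4me3 were also sparser on this chromosome, at 0.374 of the autosomal density in Cas9 cells against 0.323 for the knockout, and H3K27ac stood at 0.233 and 0.207.

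Knockout islands were densest in and close to Cas9 islands. Their coverage was 7.09% inside Cas9 islands, 4.77% in the first 200 bp outside and 4.02% from there to 1 kb. It fell on to 2.73% at 2 to 5 kb, 1.60% at 10 to 20 kb, 0.618% at 50 to 100 kb and 0.0876% beyond 1 Mb. In all, 51.7% of knockout bases lay inside Cas9 islands or within 10 kb of one. Knockout coverage was 2.02% at 5 to 10 kb, against 0.723% over the whole span. Of the 3497 knockout islands that met no Cas9 island, the nearest lay 41.2 kb away at the median, within 10 kb for 24.4% and beyond 1 Mb for 180. Seen the other way, Cas9 coverage fell from 27.2% inside knockout islands to 23.1% in the first 200 bp outside, 11.04% at 5 to 10 kb and 0.542% beyond 1 Mb. The 12427 Cas9 islands that met no knockout island lay 166.6 kb from the nearest one at the median.

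Within Cas9 islands the remaining coverage was higher in the middle than at the ends. In islands of 5 kb or more, cut into 10 equal parts, the knockout covered 5.02% of the outermost parts and 9.42% of the middle ones. In islands under 5 kb the values were 5.71% and 6.93%, a smaller difference. Along knockout islands of 5 kb or more, Cas9 coverage was 29.1% at the ends and 32.4% in the middle. These profiles describe the lists and were not compared with chance.

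**Figure D4:**
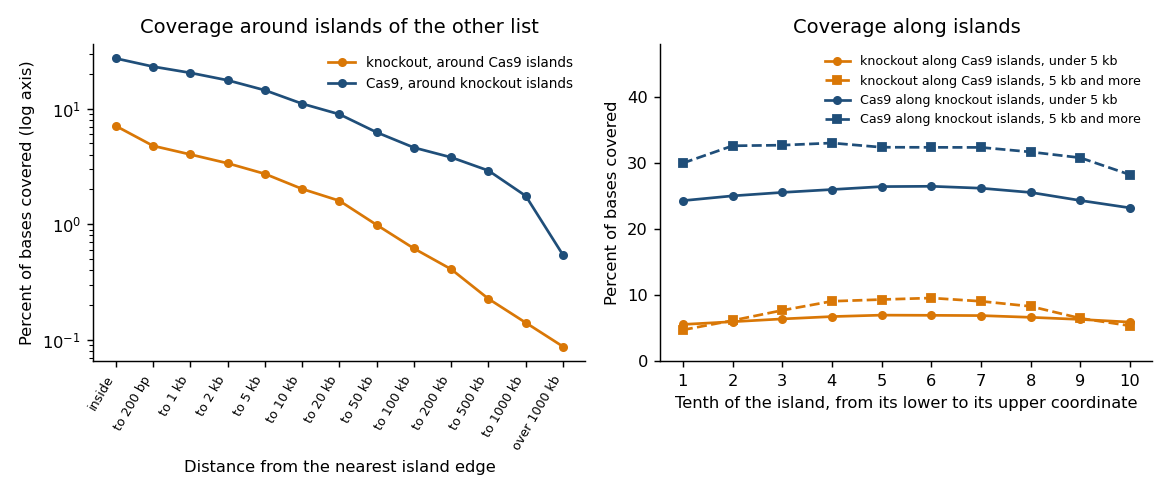
Left, the percent of bases covered by one list (log axis) inside islands of the other list and in rings of growing distance from their edges. Right, the percent of bases covered along islands cut into 10 equal parts. Knockout coverage falls from 7.09% inside Cas9 islands to 0.0876% beyond 1 Mb, and in Cas9 islands of 5 kb or more it is 5.02% in the outermost and 9.42% in the middle parts.

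The lists also differed in their distance from H3K4me3. The median Cas9 island lay 49.5 kb from the nearest H3K4me3 peak of Cas9 cells, and the median knockout island 187.3 kb. Measured from the H3K4me3 peaks of the knockout instead, the medians were 41.2 and 179.3 kb. Of Cas9 islands 69.7% lay within 100 kb of a Cas9 peak, against 31.8% of knockout islands. Bases this near to a Cas9 peak made up 40.1% of the span. Both groups of knockout islands lay farther out than the median Cas9 island, with medians of 111.4 kb for the 1815 that met a Cas9 island and 246.9 kb for the 3497 that met none. The 1680 Cas9 islands that met a knockout island were also farther out, at 108.4 kb, than the 12427 that met none, at 45.2 kb. Islands that met one of the other list thus lay nearer to H3K4me3 than the rest in the knockout, and farther than the rest in Cas9 cells. With 1 library of each kind, differences in depth, antibody yield or calling between these libraries cannot be told apart from the knockout.

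Read as coverage, the ratio of knockout to Cas9 was low up to 100 kb from H3K4me3 and rose from there to 1 Mb. Inside H3K4me3 peaks of Cas9 cells H3K27me3 islands covered 9.91% of bases in Cas9 cells against 1.24% for the knockout, a ratio of 0.125. In the rings out to 50 kb it lay between 0.0855, at 1 to 2 kb, and 0.114, in the first 200 bp. It was 0.142 from 50 to 100 kb, 0.325 from 100 to 200 kb and 0.905 from 200 to 500 kb. From 500 kb to 1 Mb it was 2.22, where islands covered 0.282% of bases in Cas9 cells against 0.625% for the knockout. Beyond 1 Mb the ratio was 1.77. Knockout coverage alone was 1.39% in the first 200 bp outside these peaks and 0.382% at 10 to 20 kb. It was 1.22% at 200 to 500 kb and 0.129% beyond 1 Mb, against 0.723% over the whole span. Summed, the bases up to 100 kb from a peak held 70.8% of the covered length of Cas9 cells and 29.8% of that of the knockout. These bases made up 40.1% of the span. Those beyond 200 kb, 45.6% of the span, held 11.6% and 48.3%. The bases from 100 to 200 kb, 14.3% of the span, held 17.6% and 22.0%. Up to 100 kb and beyond 200 kb the knockout share thus lay nearer to that of the span. From 100 to 200 kb the Cas9 share was nearer. In absolute terms the length beyond 200 kb was 8.31 Mb in Cas9 cells against 8.98 Mb for the knockout, a ratio of 1.08, while up to 100 kb it was 50.5 and 5.54 Mb, a ratio of 0.110.

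The pattern was seen on every autosome. The ratio was higher beyond 200 kb than up to 100 kb on 19 of 19 autosomes. Up to 100 kb it ran from 0.0491 on chromosome 19 to 0.171 on chromosome 18, with a median of 0.117. Beyond 200 kb it ran from 0.200 on chromosome 10 to 1.62 on chromosome 4, with a median of 1.05, and it was above 1 on 10 of the 19. Chromosomes of 1 library are not replicates, so this count describes how widely the pattern was spread. With the H3K4me3 peaks of the knockout as landmarks the ratios over all chromosomes were 0.109 and 1.31.

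**Figure D5:**
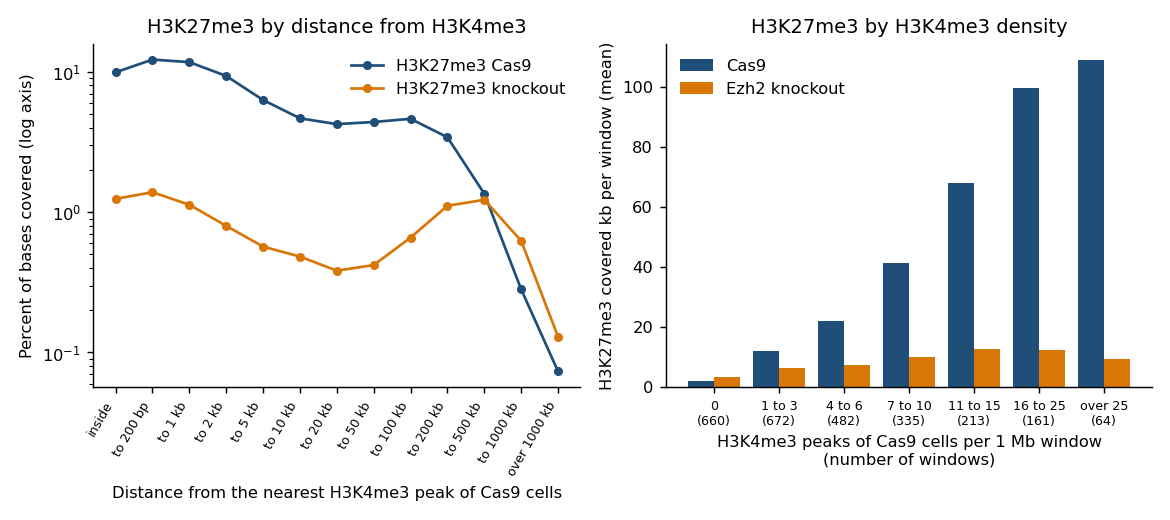
Left, the percent of bases covered by H3K27me3 islands (log axis) inside H3K4me3 peaks of Cas9 cells and in rings of growing distance from them. Right, mean kb covered per 1 Mb window, with windows grouped by their number of H3K4me3 peaks. Cas9 coverage is above that of the knockout up to the 200 to 500 kb ring (ratio 0.905). It is below that of the knockout from 500 kb to 1 Mb (ratio 2.22). The mean rises from 1.94 to 109.02 kb per window in Cas9 cells. In the knockout it rises from 3.43 kb without peaks to 12.7 kb with 11 to 15, and is 9.38 kb with over 25.

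Whole 1 Mb neighbourhoods gave the same order. There were 660 windows without an H3K4me3 peak of Cas9 cells. In them H3K27me3 covered a mean of 1.94 kb in Cas9 cells against 3.43 kb for the knockout, a ratio of 1.77. Of the 1.28 and 2.26 Mb covered in them, chr4:152000001-153000000 alone held 92.6 and 421.8 kb. The ratio was 0.530 in windows with 1 to 3 peaks, 0.326 with 4 to 6, 0.238 with 7 to 10, 0.187 with 11 to 15, 0.124 with 16 to 25 and 0.0860 in the 64 windows with more than 25. In Cas9 cells the mean rose with each class up to 109.02 kb. In the knockout it rose from 3.43 kb without peaks to 12.7 kb with 11 to 15 peaks, and was 9.38 kb with more than 25. Windows without a knockout island made up 68.5% of those without peaks and 14.1% of those with more than 25. These classes were set after the lists had been seen. With lists of equal number the ratio in windows without H3K4me3 was 4.45, but only the Cas9 list was trimmed, which could only raise the ratio. In windows of 500 kb, with the full lists, it was 1.09. Grouped by the H3K4me3 peaks of the knockout, the first and last ratios were 1.81 and 0.0817.

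Grouped by the size of the interval between neighbouring H3K4me3 peaks, the ratio rose with each class from 50 kb up. Intervals under 50 kb had a ratio of 0.0991. Those from 50 to 100 kb were covered over 5.81% of their length in Cas9 cells against 0.422% for the knockout, a ratio of 0.0726. For intervals from 200 to 500 kb the values were 5.49% and 0.805%, and from 500 kb to 1 Mb they were 2.56% and 0.996%. In the 357 intervals from 1 to 2 Mb coverage was 1.33% in both, a ratio of 0.995, and these held 35.1% of the covered length of the knockout against 9.19% of that of Cas9 cells. Intervals of 2 Mb or more were covered little in either, 0.215% and 0.291%. Knockout islands were thus densest in peak-free intervals of 1 to 2 Mb and not in the widest ones.

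The distance from H3K4me3 is given here also by the authors' score, which has no stated meaning and only ranks islands within a list. In the Cas9 list the islands at or below the median score lay 58.3 kb from H3K4me3 at the median, and the lowest 10% of scores lay at 58.0 kb. Those above the median score lay at 40.8 kb. In the knockout list the islands above the median score lay at 185.5 kb and those at or below it at 190.6 kb. The median of each of these Cas9 classes was below that of both knockout classes.

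H3K4me3 lay in fewer of the knockout islands, and H3K27ac of the same cells was rare in both lists. An H3K4me3 peak of the same cells lay in 10.8% (10.3 to 11.3) of Cas9 islands and in 4.41% (3.89 to 4.99) of knockout islands. Among knockout islands the share was 10.7% (9.40 to 12.3) where a Cas9 island was met and 1.12% (0.817 to 1.52) where none was. H3K27ac of the same cells lay in 0.808% (0.673 to 0.970) of Cas9 islands and 1.49% (1.19 to 1.85) of knockout islands, from H3K27ac lists of 7951 regions in Cas9 cells and 10112 for the knockout. Against 1 H3K27ac list the order was the other way. With the H3K27ac list of Cas9 cells the shares were 0.808% of Cas9 islands and 0.565% (0.396 to 0.805) of knockout islands, with intervals that overlap, and with that of the knockout they were 5.43% (5.07 to 5.82) and 1.49%. The H3K4me3 share was lower in knockout islands with either list, at 3.43% against 10.8% with the peaks of Cas9 cells and 4.41% against 13.0% with those of the knockout. Knockout islands were also shorter, and the part of length in these shares was not tested. Knockout islands that met a Cas9 island also more often had another knockout island within 10 kb. The shares were 56.1% (53.8 to 58.4) against 39.7% (38.1 to 41.3) of those that met none. Close islands count each other as neighbours, so these counts are not independent and their intervals are too narrow.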

How the data were processed

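Chromatin immunoprecipitation libraries of 14 samples make up the series, and the 2 tumour H3K27me3 lists are described here. Build mm9 and the tools SICER 1.1, BWA 0.5.9-r26, SAMtools, Picard and R 2.14.0 are named per the submitters' processing notes, which give no role or order. Per the names of the deposited lists, islands were called with a 200 bp window, a 600 bp gap and a false discovery rate of 0.00001, each list on 1 library. Input libraries were not analysed here. To read ends as intervals, 1 bp was added to each island end. The deposited score of each island has no stated meaning and ranked islands within a list only. The numbering of islands skips 71 numbers in the Cas9 list and 105 in the knockout list, which were not analysed here.

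Overlap, coverage, gaps and windows used numpy 2.4.6 and scipy 1.17.1 under Python 3.11.15, and matplotlib 3.10.9 drew the figures. Island overlaps with each of the other tumour lists were the same as those of bedtools 2.31.1 for all 10 pairs, and 60 checks on simulated data differed in 0. Spans run from the lowest start to the highest end in any of 11 lists. Distances and H3K4me3 classes used the tumour H3K4me3 and H3K27ac lists. Regions named in the text were the 5 highest by each fixed rule: longest islands, runs joined at 10 kb (with those joined at 50 kb added later), fullest 1 Mb windows of each list and of their difference, and longest gaps of the Cas9 list. The members, landmarks and rules were chosen with earlier results of these data known. Gene families and base composition were planned only for an annotation of build mm9 and were not analysed.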

Additional observations from a re-analysis of the deposited data

How the results depend on the processing

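There was 1 library per group, so only the lists' construction could be varied. Lists of equal number were made by trimming the Cas9 list by score, which left out 62.3% of its islands and none of the knockout. Of 61 alternatives 14 stayed within the counting interval or the printed digits of the reported value, and 47 moved. None turned a ratio to the other side of 1, which could be asked of the ratios only and not of the shares and lengths. The tally is no measure of robustness. Values taken from the knockout list alone could not move with lists of equal number. Other distances, window sizes and cover thresholds give different quantities. The knockout over Cas9 covered length ratio was 0.240 in the upper 50% of scores, 0.414 with lists of equal number, 0.252 for islands of at least 2 kb, 0.260 with islands joined within 5 kb and 0.276 without islands at Cas9 antibody regions. In the same order the share of Cas9 bases covered again was 5.64%, 7.72%, 6.70%, 7.85% and 6.41%, and it was 7.11% on autosomes. Joining within 5 kb gave median lengths of 4300 bp in Cas9 cells and 3200 bp in the knockout. The share of Cas9 islands overlapped was 17.1% with lists of equal number, 14.1% when joined, 10.7% without Cas9 antibody regions and 6.40% at 50% cover. For knockout islands it was 20.5% with equal numbers, 29.8% without Cas9 antibody regions and 27.5% at 50% cover. The next Cas9 island lay within 10 kb in 33.9% of gaps with equal numbers and 43.8% without Cas9 antibody regions, and within 5 and 50 kb in 34.4% and 69.7%. Knockout gaps gave 20.6% within 5 kb and 57.3% within 50 kb. The fullest 10% of windows held 64.2% of Cas9 islands with equal numbers, 60.4% at 500 kb and 48.4% at 2 Mb, and 72.1% of knockout islands without Cas9 antibody regions, 75.6% at 500 kb and 64.7% at 2 Mb. The X over autosome density of Cas9 cells was 0.0310 with equal numbers, 0.0676 without Cas9 antibody regions and 0.0387 by covered bases, and that of the knockout 0.0210 and 0.0188 by the last 2. In windows without H3K4me3 the ratio was 2.11 in the upper 50% of scores, 4.45 with equal numbers, 1.75 for islands of at least 2 kb, 1.88 without Cas9 antibody regions, 1.81 on autosomes and 1.09 in 500 kb windows. With over 25 peaks it was 0.0624, 0.121, 0.0835 and 0.0882 under the first 4 of these. These last 2 sets were added after the data had been seen. Read depth is unknown, so a shorter list cannot be told apart from a shallower library. No paired analysis was possible because each group held 1 library.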

Other observations

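Chromosome X was sparse in lists from other antibodies too, though these came from neurospheres, floating cultures of neural cells. Relative to autosomes, the density of regions on X was 0.0634 with the Gfi1 antibody in Cas9 neurospheres and 0.144 in Suz12F2 neurospheres. With the Cas9 antibody it was 0.0404 for the U6 label with 8 regions on X, 0.0163 for Suz12F1 with 1, and 0.0860 for Suz12F2 with 6. The tumour H3K27me3 value of Cas9 cells, 0.0627, lay among these.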
